A study of Homo sapiens with 48 samples.

Results

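The comparison concerned the genomic regions at which the NF-κB subunits RELA and RELB were called by ChIP-seq 6 h after TNFα in L3.6pl cells, a human line derived from pancreatic cancer. Members were the peaks of the 2 lists on chromosomes 1 to 22 and X that lay outside tandem repeats, sorted by an overlap of at least 1 bp into regions called for RELA only, for both subunits, or for RELB only. A peak was placed in a tandem repeat when the 1000 bp around its summit matched itself, after a shift of up to 400 bp, above a self-match limit of 0.4. Of 7266 RELA peaks on these chromosomes 3657 lay outside tandem repeats, and of 3526 RELB peaks 406 did. The resulting classes held 3290 RELA-only regions, 367 shared regions and 39 RELB-only regions. The 2 lists came from 6 of the series' 48 libraries, 3 libraries each, and each list was called on the merged 3 libraries.

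The cells had received TNFα at 10 ng/ml for 6 h. L3.6pl cells treated with vehicle (PBS), with TNFα for 30 min, or with the cytokine TWEAK for 30 min or 6 h gave the other RELA and RELB lists used below. FOSL1, a subunit of the AP-1 factor, was mapped in vehicle, and the active-chromatin mark H3K27ac in vehicle and after 30 min and 6 h of TNFα. All lists came from 1 cell line, and since the replicates were merged before calling, no spread between replicates and no test over samples could be had. The lists hold no read depth. Intervals below are 95% intervals over regions and cover counting error only, with neighbouring regions not independent.

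RELA and RELB are both DNA-binding subunits of NF-κB. RELA usually pairs with p50, is held in the cytoplasm by IκB proteins and is released within minutes of TNFα, which is known as the canonical route. RELB usually pairs with p52, the product of NFKB2, through the slower noncanonical route that receptors such as that for TWEAK engage, and the genes NFKB2 and RELB are themselves known NF-κB targets.

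After 6 h of TNFα most RELB regions overlapped a RELA region. A RELA region was present at 367 of 406 RELB regions, 90.4% (interval 87.1 to 93.1), and a RELB region at 367 of 3657 RELA regions, 10% (9.08 to 11.1). Regions of the vehicle list of the same antibody were also left out of each list before the overlap was taken. The shares were then 59.4% (52.8 to 65.8) of RELB and 4.25% (3.59 to 5) of RELA regions. There, a region whose partner had been left out counted as unshared. RELA was called in vehicle at 49.0% of the 367 shared regions. The 59.4% is therefore not the share with RELA at 6 h among RELB regions absent in vehicle. The summits of the shared pairs were a median of 17 bp apart, and 315 of 367 (85.8%) were within 50 bp. Tandem repeats held 49.7% of the RELA list and 88.5% of the RELB list, and 2322 of the 3120 RELB peaks in them overlapped a RELA peak, and these peaks were left out below. With the repeats kept, RELB was called at 37.0% of RELA regions. The shares also depend on list length. Outside repeats, with the RELA list cut to its 406 strongest regions, RELA was present at 34.7% (30.1 to 39.6) of RELB regions.

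A second kind of repeated sequence remained in the classes. A region was called multicopy when at least 50% of the 31-base words in the 201 bp around its summit occurred more than once in the genome, alternate haplotypes left out. Multicopy sequence made up 9.27% of the RELA-only regions (305 of 3290), 27.5% of the shared regions (101 of 367) and 74.4% of the RELB-only regions (29 of 39). The multicopy shared regions had nearly equal enrichment for both subunits, with a median RELA to RELB fold ratio of 1.03 (quartiles 0.933 and 1.19) against 2.04 (1.5 and 2.55) at the 266 single-copy ones. The 36 regions called in all 10 RELA and RELB lists, vehicle included, were multicopy in 33 cases, held no AP-1 motif, and 8 of them matched the mitochondrial genome in at least 50% of their words. The strongest region of both lists, 362348 bp from the start of IRS2 on chromosome 13 with 41.7-fold RELA and 40.8-fold RELB enrichment, was of this kind. Of the 10 strongest shared regions 5 were multicopy, those nearest IRS2, NECTIN1, ELMOD1, MAP4K4 and MSH3. The same held for 3 of the 10 strongest RELA-only regions, nearest FAM90A14, DIRAS2 and FAM90A15P, and for 4 of the 10 strongest RELB-only regions, nearest DEFB115, ATG7, PCDH9 and AMY2A. Values for the 2985 RELA-only, 266 shared and 10 RELB-only single-copy regions are therefore given beside those for all members. In these RELA was present at 96.4% of RELB regions (93.4 to 98.2) and RELB at 8.18% of RELA regions (7.26 to 9.18).

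**Figure D1:**
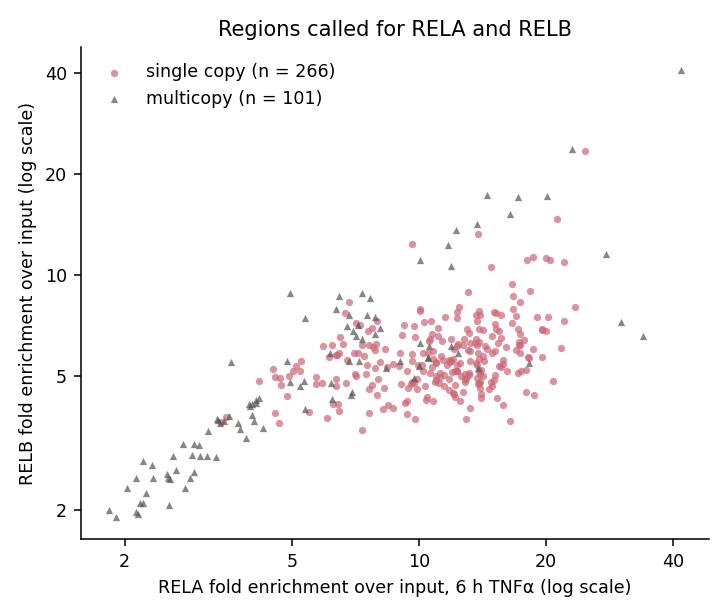
RELA fold enrichment over input (x axis, log scale) against RELB fold enrichment (y axis, log scale) at 6 h TNFα in the 367 shared regions, 1 point per region; circles are single-copy and triangles multicopy regions. Below a RELA fold of 5 most points are multicopy regions with about equal folds, while the single-copy regions have a median RELA to RELB ratio of 2.04.

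The sequences below are stretches near the summit of a few single-copy regions of each class, because the classes differed in the motifs they held. They are on the plus strand of hg38 and were read from the reference genome, with matches to the NF-κB decamer consensus and to the AP-1 motif TGACTCA or TGAGTCA in capitals. Windows next to an exon were shortened. The first 5 are shared regions, the next 3 RELA-only and the last 2 RELB-only.
TNFAIP3, promoter, chr6:137867174-137867213: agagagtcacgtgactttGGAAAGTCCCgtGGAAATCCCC
NFKBIA, 803 bp after the start, chr14:35403953-35403982: caggcgcccaGGGACTTTCCgcccccctcc
BIRC3, promoter, chr11:102317319-102317388: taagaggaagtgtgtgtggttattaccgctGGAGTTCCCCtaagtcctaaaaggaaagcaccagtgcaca
TNIP2, intron, chr4:2746270-2746339: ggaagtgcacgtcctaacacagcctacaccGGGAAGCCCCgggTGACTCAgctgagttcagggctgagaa
TRAF2, intron, chr9:136902538-136902607: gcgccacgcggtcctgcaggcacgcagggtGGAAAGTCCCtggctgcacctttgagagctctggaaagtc
NFKB1, promoter, chr4:102501300-102501329: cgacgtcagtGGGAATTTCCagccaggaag
MMP1, 3552 bp after the start, chr11:102794558-102794627: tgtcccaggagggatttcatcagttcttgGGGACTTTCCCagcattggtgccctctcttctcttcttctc
C3, intron, chr19:6720709-6720778: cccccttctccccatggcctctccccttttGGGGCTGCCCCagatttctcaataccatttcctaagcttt
CREB5, intron, chr7:28612155-28612224: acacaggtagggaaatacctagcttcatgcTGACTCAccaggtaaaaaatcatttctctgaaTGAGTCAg
IPO7, 20157 bp before the start, chr11:9364500-9364569: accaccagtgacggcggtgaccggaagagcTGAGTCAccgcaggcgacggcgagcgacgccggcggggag

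RELB calls were concentrated at the strongest RELA regions. The shared regions had a median RELA enrichment of 10.5-fold over input (quartiles 6.62 and 13.9) and the RELA-only regions 6.17-fold (5.03 and 8.4), which put their median ranks at percentiles 83.5 and 47.1 of the RELA list. In single-copy regions the medians were 11.9-fold (8.50 and 14.4) and 6.29-fold (5.09 and 8.41). When the 3251 single-copy RELA regions were ordered by fold and divided into 10 equal groups, RELB was called at 3 of 326 in group 1, the weakest (0.92%), at 59 of 325 in group 9 (18.2%, interval 14.1 to 22.8) and at 117 of 325 in group 10 (36%, 30.8 to 41.5). Over all RELA regions group 1 stood apart, with RELB at 50 of 366 (13.7%) against 8 of 366 in group 2, and 29.2% of it was multicopy. In the strongest single-copy group 208 of 325 regions carried no RELB call. Within the shared single-copy regions the folds of both subunits were only weakly related (Spearman rho 0.36 across 266 regions, which are not independent replicates and share their input), against 0.91 across the 101 multicopy ones. When the RELA list was cut to its 406 strongest regions, as many as the RELB list held, RELB was called at 34.7% of them.

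**Figure D2:**
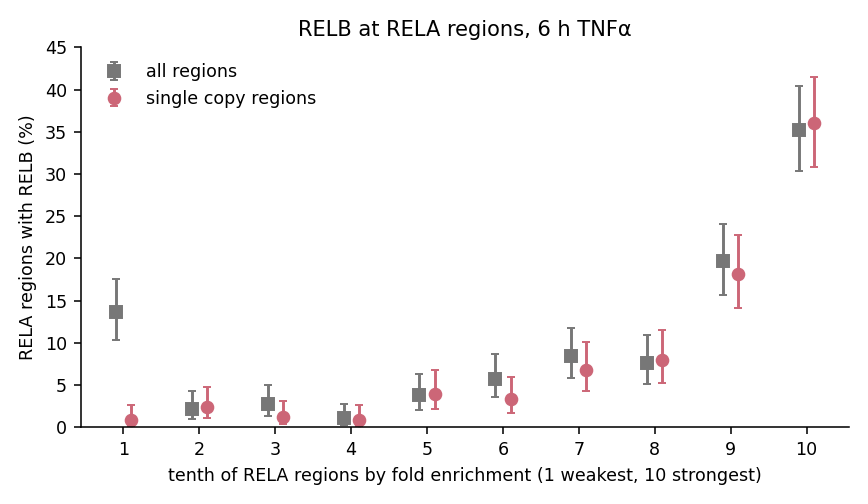
Share of RELA regions with a RELB region at 6 h TNFα (y axis, percent) in 10 equal groups by RELA fold enrichment (x axis, 1 weakest to 10 strongest), for all regions (squares) and single-copy regions (circles), with exact 95% intervals. The share reaches 36% in group 10 of the single-copy regions, and in group 1 it is 13.7% over all regions but 0.92% over single-copy ones.

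The 10 strongest single-copy shared regions by RELA fold were led by an intronic region of KIF5C, a kinesin heavy chain. This region had 24.8-fold RELA and 23.4-fold RELB enrichment but was called in all 10 lists. Of its words 39.8% were in more than 1 copy, and 38.6% matched the mitochondrial genome. An intronic region of GOLGA7B followed with 23.5-fold RELA and 8.02-fold RELB enrichment. TNFRSF10B, a death receptor for the ligand TRAIL, had a region 5783 bp before its start with 22.1-fold RELA and 7.27-fold RELB enrichment. Regions 17066 bp before ITGAV, the integrin αV gene, and inside ITGAM, the integrin αM gene, had 21.7- and 21.3-fold RELA and 6.05- and 14.6-fold RELB enrichment. TRAF2, an adaptor of TNF receptors, had an intronic region of 20.5-fold RELA and 11.1-fold RELB enrichment, ranked 18 in each list. Regions nearest to RASSF10, UGCG and STX8 completed the first 10 with TNFAIP3. Of these 10 regions 9 held an NF-κB motif, all but that of ITGAV, which held an AP-1 motif, and 9 overlapped FOSL1, all but that of TRAF2. All 10 had also been called for RELA in vehicle. RELB was called in vehicle at those of KIF5C, TNFRSF10B, RASSF10, ITGAM, TRAF2 and TNFAIP3.

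The strongest RELA-only single-copy regions, of which 9 are described, had folds like those of the strongest shared ones, between 19.9 and 23.6. An intronic region of C3, the central complement component, had 23.6-fold RELA enrichment, and the promoter of NFKB1, which encodes p105 and p50, had 22.6-fold. An intergenic region 12961 bp after the start of BDKRB1, the inducible bradykinin receptor, reached 21.4-fold. The promoter of CXCL8, the neutrophil chemokine interleukin-8, had 20.0-fold, with its summit 29 bp before the start. Regions near ACBD6, FAM151B, SHH, CP and CCDC3 had folds between 19.9 and 20.4. All 9 had also been called for RELA after 30 min of TNFα. In vehicle RELA was called at all of them but the regions of FAM151B and CXCL8, and RELB at none. RELB was called at 6 of the 9 after 6 h of TWEAK, at NFKB1 and BDKRB1 among them, and at C3, CXCL8 and CP in neither of the 6 h conditions.

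Shared regions were less often at promoters than RELA-only regions. A summit lay within 1 kb of the start of a protein-coding gene in 34 of 367 shared regions (9.26%) and in 523 of 3290 RELA-only regions (15.9%), a difference of -6.63 points (interval -9.50 to -3.02), and in single-copy regions the shares were 9.77% and 16.6%. With the RELA list cut to 406 regions the difference was -6.10 points and its interval held 0 (-12.96 to 1.68). Such positions make up 1.26% of the genome. Introns held 108 of 266 single-copy shared (40.6%) and 1193 of 2985 single-copy RELA-only regions, and the rest was mostly intergenic (44.7% and 38.7%).

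NF-κB and AP-1 motifs were both more frequent in the shared class once multicopy regions were set aside. The NF-κB decamer, searched on both strands within 100 bp of the summit, was present in 84.2% of single-copy shared regions (224 of 266) and in 72.8% of single-copy RELA-only regions (2172 of 2985), a difference of 11.4 points (6.34 to 15.7). Over all members the shares were 67.3% and 71.7%, a difference of -4.43 points whose interval (-9.61 to 0.43) held 0, and at a self-match limit of 0.5 it was -25.8 points. The multicopy shared regions held the motif in 23 of 101 cases, and their part in the difference was measured only by leaving them out. The decamer was found in 8.61% of all 201-bp stretches of the genome and in 14.4% of 50097 FOSL1 regions that no RELA or RELB list overlapped. Its share also rose with RELA fold, from 46.6% in the weakest to 89.5% in the strongest of the 10 single-copy groups, and within 5 strata of RELA fold the single-copy difference was 2.44 points.

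The AP-1 motif TGACTCA (in either orientation, the reverse being TGAGTCA) was present in 35.7% of single-copy shared (95 of 266) and 23.6% of single-copy RELA-only regions (703 of 2985), a difference of 12.2 points (6.43 to 18.3) that was 11 points within the same 5 strata. For all members it was 27.5% against 23.3%, with an interval of -0.30 to 9.26 points, and it turned to -5.43 points at a self-match limit of 0.5. AP-1 motifs occurred in 3.00% of genomic stretches and in 41.7% of the FOSL1 regions without NF-κB. The TEAD motif GGAATG was found in 20.3% and 14.4% of the 2 single-copy classes, a difference of 5.90 points (1.31 to 11.3), and the GC box GGGCGG in 17.3% and 19.5%, with an interval of -6.56 to 2.95 points. Of all 201-bp stretches of the genome 10.9% held the TEAD motif and 2.85% the GC box.

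The NF-κB decamers themselves differed in order. In single-copy shared regions the most frequent was GGGACTTTCC, read on either strand, present in 39 of 266 (14.7%), and it held place 5 in the RELA-only class with 165 of 2985 (5.53%), a difference of 9.13 points (5.29 to 13.9). It stands in the shared regions of TNFAIP3, NFKBIA and TRAF2 above, and in the RELA-only region of MMP1. In RELA-only regions GGGAAATTCC led with 203 of 2985 (6.80%), against 16 of 266 shared regions (6.02%), and GGGAATTTCC, seen in the NFKB1 promoter, came next with 200 (6.70%) against 12 (4.51%). The intervals of the latter 2 differences held 0. These decamers were taken as the 5 most frequent of each class, so the comparison is a description. The match nearest the summit was a median of 11.5 bp from it in shared and 13.5 bp in RELA-only regions.

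FOSL1 overlapped shared regions more often than RELA-only regions. A FOSL1 region in vehicle overlapped 289 of 367 shared regions (78.7%, interval 74.2 to 82.8) and 1813 of 3290 RELA-only regions (55.1%, 53.4 to 56.8), a difference of 23.6 points (18.9 to 27.9). In single-copy regions the shares were 79.7% and 56.1%, and within the same 5 strata the difference was 19.3 points. Among shared single-copy regions with FOSL1, 40.6% (86 of 212) held the AP-1 motif and 83.5% the NF-κB motif. In those without FOSL1 the shares were 16.7% (9 of 54) and 87.0%. Among single-copy RELA-only regions the NF-κB motif was found in 64.2% of those with FOSL1 (1074 of 1674) and in 83.8% of those without (1098 of 1311), and the AP-1 motif in 30.3% and 14.9%.

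**Figure D3:**
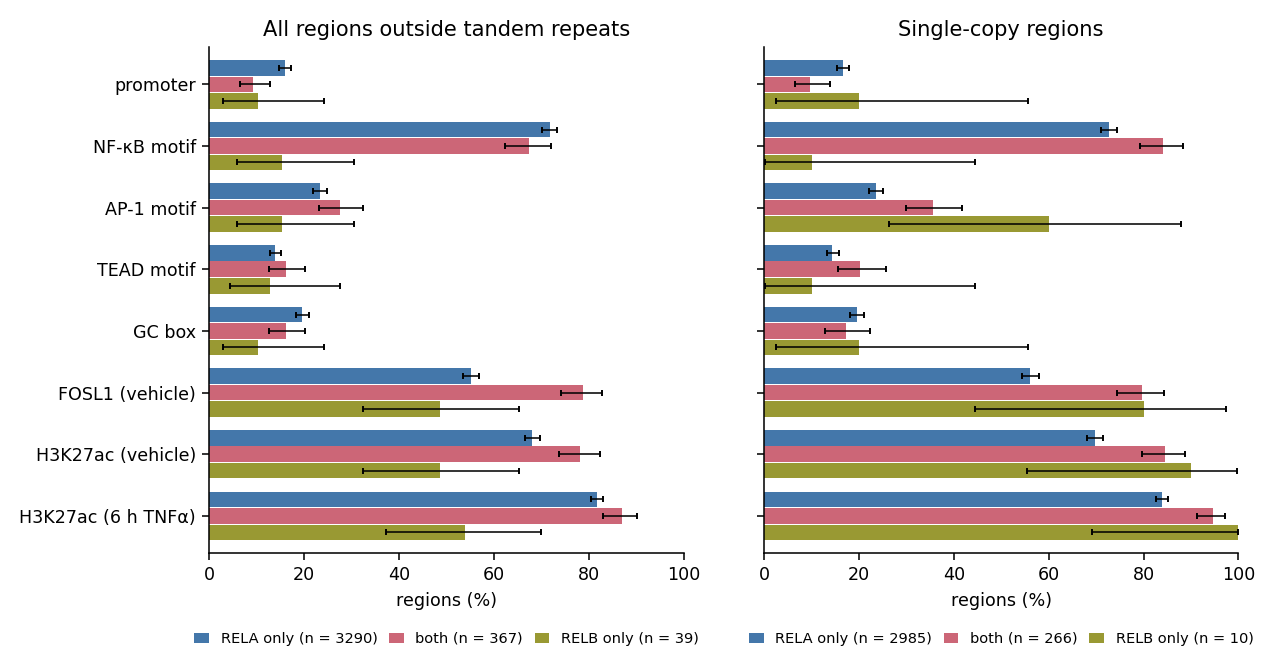
Share of RELA-only, shared ("both") and RELB-only regions (x axis, percent) with each feature (y axis), for all members (left) and single-copy members (right); bars carry exact 95% intervals. FOSL1 is more frequent in shared than RELA-only regions in both panels, whereas the NF-κB motif is so only on the right (84.2% against 72.8%).

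Most regions of both classes lay in acetylated chromatin at 6 h, the shared ones more often. An H3K27ac region within 500 bp of the summit was called after 6 h of TNFα at 319 of 367 shared regions (86.9%) and at 2689 of 3290 RELA-only regions (81.7%), a difference of 5.19 points (1.14 to 8.55). With tandem repeats limited less strictly, at a self-match of 0.5, this difference turned to -0.46 points. In single-copy regions it was 10.8 points (94.7% and 84%, interval 7.18 to 13.3). Within the same 5 strata it was 1.89 points over all members and 6.26 points in single-copy regions. The interval held 0 with tandem repeats kept (-0.56 to 3.95) and with regions of the vehicle lists left out (-2.50 to 9.26). In the latter setting the classes were remade, and RELA regions whose RELB partner was left out counted as RELA only. The mark was already present in vehicle at 84.6% of single-copy shared and 69.8% of single-copy RELA-only regions. Of the single-copy regions without it in vehicle, 27 of 41 shared (65.9%) and 433 of 901 RELA-only ones (48.1%) had it after 6 h, a difference of 17.8 points (2.15 to 30.8) that was 6.26 points within the same 5 strata. Over all members the same shares were 36 of 80 (45%) and 465 of 1051 (44.2%), with an interval of -10.1 to 12 points, and the difference was -3.91 points within the strata. Loss of the mark was rare: 0 of 225 single-copy shared regions and 11 of 2084 single-copy RELA-only regions had it in vehicle and not at 6 h. For the count of 0, an approximate upper limit of 1.33% was taken as 3 in 225, not as an exact interval.

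The other lists separated the classes further, but these shares were not compared within strata of RELA fold. The share of RELA regions with RELB after 6 h of TWEAK rose with RELA fold. It was 11.3% in the weakest and 79.4% in the strongest of the 10 single-copy groups. RELA had been called without stimulus at 119 of 266 single-copy shared regions (44.7%, interval 38.7 to 50.9) and at 158 of 2985 RELA-only regions (5.29%, 4.52 to 6.16), and after 30 min of TNFα at 94.4% and 81.8%. The peak names of that 30 min RELA list carry a replicate 1 tag, so it may not rest on all 3 libraries. RELB was called in vehicle at 85 of the 266 shared regions (32.0%) and after 30 min of TNFα at 7.89%. After 6 h of TWEAK RELB was called at 253 of the 266 (95.1%, 91.8 to 97.4) and also at 906 of 2985 RELA-only regions (30.4%, 28.7 to 32.0). Outside tandem repeats the RELB list of 6 h TWEAK held 1636 regions and that of 6 h TNFα 406, and the part of this difference in length in the additional calls was not tested. In the strongest of the 10 single-copy groups of RELA regions, 142 of the 208 without RELB after TNFα had RELB after 6 h of TWEAK, while 1 region had RELB after TNFα and not after TWEAK.

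**Figure D4:**
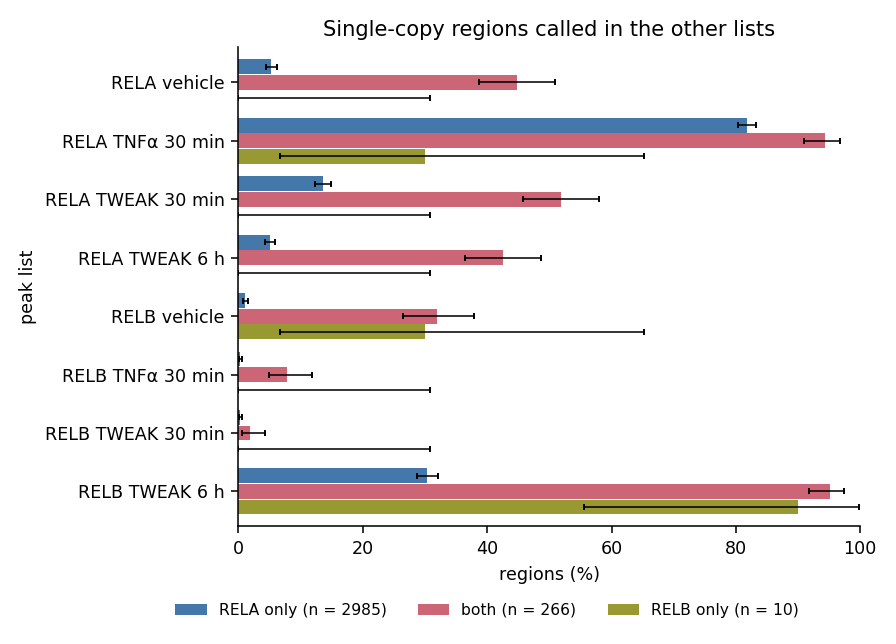
Share of single-copy RELA-only, shared ("both") and RELB-only regions at 6 h TNFα (x axis, percent) that overlap each of the other 8 RELA and RELB lists (y axis), with exact 95% intervals. Shared regions exceed RELA-only regions in every list shown, from 1.88% against 0.27% for RELB at 30 min TWEAK to 95.1% against 30.4% for RELB at 6 h TWEAK.

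The 906 RELA-only single-copy regions with a RELB call after 6 h of TWEAK were compared with the shared class. Their NF-κB motif share was 82.6%, which differed from that of shared regions by 1.65 points with an interval of -3.75 to 6.33, and exceeded that of the 2079 RELA-only regions without RELB after TWEAK (68.5%) by 14.1 points (10.8 to 17.2). Their FOSL1 share (64.0%) lay between that of shared regions (79.7%) and that of the remaining RELA-only regions (52.6%), with differences of 15.7 points (9.61 to 21.1) and 11.4 points (7.56 to 15.1) whose intervals excluded 0. Their median RELA fold, 8.11, also lay between 11.9 and 5.75.

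The shared regions were also divided by whether RELB had been called in vehicle. Of the single-copy shared regions 181 lacked RELB in vehicle, and these held the NF-κB motif in 84%, the AP-1 motif in 35.9% and FOSL1 in 74.0% of cases, against 72.8%, 23.6% and 56.1% of RELA-only regions. The 82 with RELB in vehicle, those in all 10 lists aside, overlapped FOSL1 in 91.5% (83.2 to 96.5) and RELA in vehicle in 69.5%, and all 82 carried H3K27ac at 6 h.

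RELB-only regions were few and mostly multicopy. The 39 regions had a median RELB fold of 4.43, against 5.44 for the 367 RELB regions shared with RELA, and in single-copy regions the medians were 5.55 and 5.52. They held the NF-κB motif in 6 cases (15.4%, interval 5.86 to 30.5) against 67.6% of shared RELB regions, a difference of -52.2 points (-61.5 to -37.0), and FOSL1 in 19 (48.7%) against 79.0%. H3K27ac at 6 h was called at 21 (53.8%) against 86.6%, and promoters made up 10.3% and 9.54%. With multicopy regions left out of both classes the H3K27ac difference was 5.64 points (interval -22.2 to 9.09) and the FOSL1 difference -0.075 (-31.4 to 15.2). All 10 single-copy RELB-only regions carried H3K27ac at 6 h, against 94.4% of 266 single-copy shared RELB regions, and 8 carried FOSL1, against 80.1%.

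Those 10 single-copy regions, by RELB fold from 6.52 to 3.77, lay nearest RNF19B, IFT140, MAT2A, IPO7, PGPEP1, CREB5, ASPN, TUT7, HAS2 and ATP1B3. The AP-1 motif was found in 6 of them (MAT2A, IPO7, CREB5, ASPN, TUT7 and HAS2) and the NF-κB decamer in the ATP1B3 region alone. The regions of IFT140, a ciliary transport gene, and of PGPEP1, a peptidase gene, were promoters, with summits 122 and 99 bp before the start. RELB was called at 9 of the 10 after 6 h of TWEAK, all but ASPN, and RELA at 3 of them after 30 min of TNFα (MAT2A, IPO7 and PGPEP1). With 10 regions, these shares have wide intervals, 26.2 to 87.8% for the AP-1 motif.

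The genes near each class were read from lists of 96 NF-κB pathway and target genes, counting regions within 50 kb of the start. A shared region lay near 14 of the 96 genes (14.6%), against 1.96% of all 19970 protein-coding genes, or 1.63% for single-copy shared regions, which all 14 had. A RELA-only region lay near 54 (56.2%), against 18.7% of all genes. No listed gene had a RELB-only region within this distance, against 0.235% of all genes. Within 100 kb 1 did, against 0.461% of all genes. The listed genes include known NF-κB targets and were chosen with results of these data known, so their counts are a description. Within 10 kb, 8 genes had a shared region, against 0.551% of all genes.

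Of 7 feedback regulators 4 had a shared region within 50 kb, against 1.96% of all genes. TNFAIP3, which encodes the ubiquitin-editing enzyme A20, had a shared region at its start with 20.3-fold RELA (rank 21 of 3657) and 7.52-fold RELB enrichment, while a region 6321 bp downstream had 13.8-fold RELA enrichment and no RELB call. CYLD, a deubiquitinase, had a shared promoter region of 15.6-fold RELA and 6.49-fold RELB. TNIP2, an A20-binding partner, had an intronic region of 18.3-fold RELA and 8.98-fold RELB in which the NF-κB and AP-1 matches stand 3 bases apart, as printed above. TNIP1, another A20-binding partner, had shared intragenic regions of 10.4- and 7.04-fold RELA and 4 RELA-only ones, its promoter among the latter. In vehicle RELB was already called at the shared regions of TNFAIP3 and CYLD and at the 10.4-fold one of TNIP1. It was not called in vehicle at that of TNIP2 or at the 7.04-fold one of TNIP1. RELA was called in vehicle at all of these shared regions but that of TNIP2.

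The inhibitor genes and subunit genes split between the classes. Of 6 IκB genes only NFKBIA, encoding IκBα, had shared regions, 1 at 803 bp after the start (12.3-fold RELA, 6.14-fold RELB) and 1 at the start (8.65 and 5.43). The other 5 had RELA-only regions, such as the start regions of NFKBIE (14.8-fold) and BCL3 (13.5-fold). Beside the inhibitor and subunit counts, 1.96% of all genes had a shared and 18.7% a RELA-only region within 50 kb. Of 5 subunit genes NFKB2 alone had shared regions, 377 bp after its start (15.2-fold RELA, 7.70-fold RELB) and 1602 bp after it (7.75 and 6.94). In vehicle the RELB subunit was already called at both NFKB2 regions and at the NFKBIA region 803 bp after the start. It was not called in vehicle at the NFKBIA start region. The promoters of NFKB1 (22.6-fold), RELB (19.4-fold), REL (13.5-fold) and RELA (11.5-fold) were called for RELA only, and RELB and NFKB1 outranked the NFKB2 region in RELA fold. After 6 h of TWEAK the RELB subunit was called at each of these promoters and at the NFKBIE and BCL3 start regions. It was called at none of the regions of NFKBIB, NFKBIZ and NFKBID. That RELB list was longer, with 1636 against 406 regions outside tandem repeats.

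Receptor and signalling genes had shared regions near 5 of 15 genes, against 1.96% of all genes: TRAF2, BIRC2, BIRC3, TNFRSF1A and TNFRSF12A. BIRC2 and BIRC3, neighbouring genes for the ubiquitin ligases cIAP1 and cIAP2, had the same 3 shared regions, led by the BIRC3 promoter (13-fold RELA, 8.90-fold RELB). BIRC3 also had a weak RELA-only region (3.49-fold). The regions of TNFRSF1A, the main TNFα receptor, and TNFRSF12A, the TWEAK receptor, lay 29165 and 46864 bp from their starts and outside the genes. The nearest starts were those of PLEKHG6, 2513 bp away, and IL32, 12 bp away, genes singled out here after their values were seen. The start region of TRAF2 (10.9-fold RELA) was RELA only, so the shared region was the intronic one. In vehicle RELB was already called at that intronic region, at the BIRC3 promoter and at the region 28598 bp after the BIRC3 start. It was not called in vehicle at the remaining shared BIRC3 region or at those of TNFRSF1A and TNFRSF12A.

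Of 12 chemokine genes 10 had RELA-only regions, against 18.7% of all genes, and 0 had a shared one, which is near the 1.96% of all genes. The starts of CXCL8 (20.0-fold), CXCL2 (15.6-fold), CXCL1 (15.5-fold), CXCL5 (13-fold) and CXCL10 (10.3-fold) were all bound by RELA without a RELB call. CXCL3 and CXCL5, neighbours on chromosome 4, were counted with the same 3 regions, and CXCL10 and CXCL11 with the same 2. Of 8 survival genes 5 had RELA-only regions, and of 10 antigen presentation genes 2 did, near the share of all genes, with the B2M start among them (11.5-fold). Neither list had a shared region, which is also near the share of all genes. Among 13 cytokine genes LIF had a shared region 4195 bp before its start (14-fold RELA, 4.31-fold RELB), and 7 others, such as CSF1 and IL23A, had RELA-only regions. Among 8 AP-1 genes FOSL1 itself had a shared region, 12444 bp before its start (11 and 5.50), and 3 genes, FOSB, JUNB and FOSL1, had RELA-only regions. Beside these cytokine and AP-1 counts, 1.96% of all genes had a shared and 18.7% a RELA-only region.

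**Figure D5:**
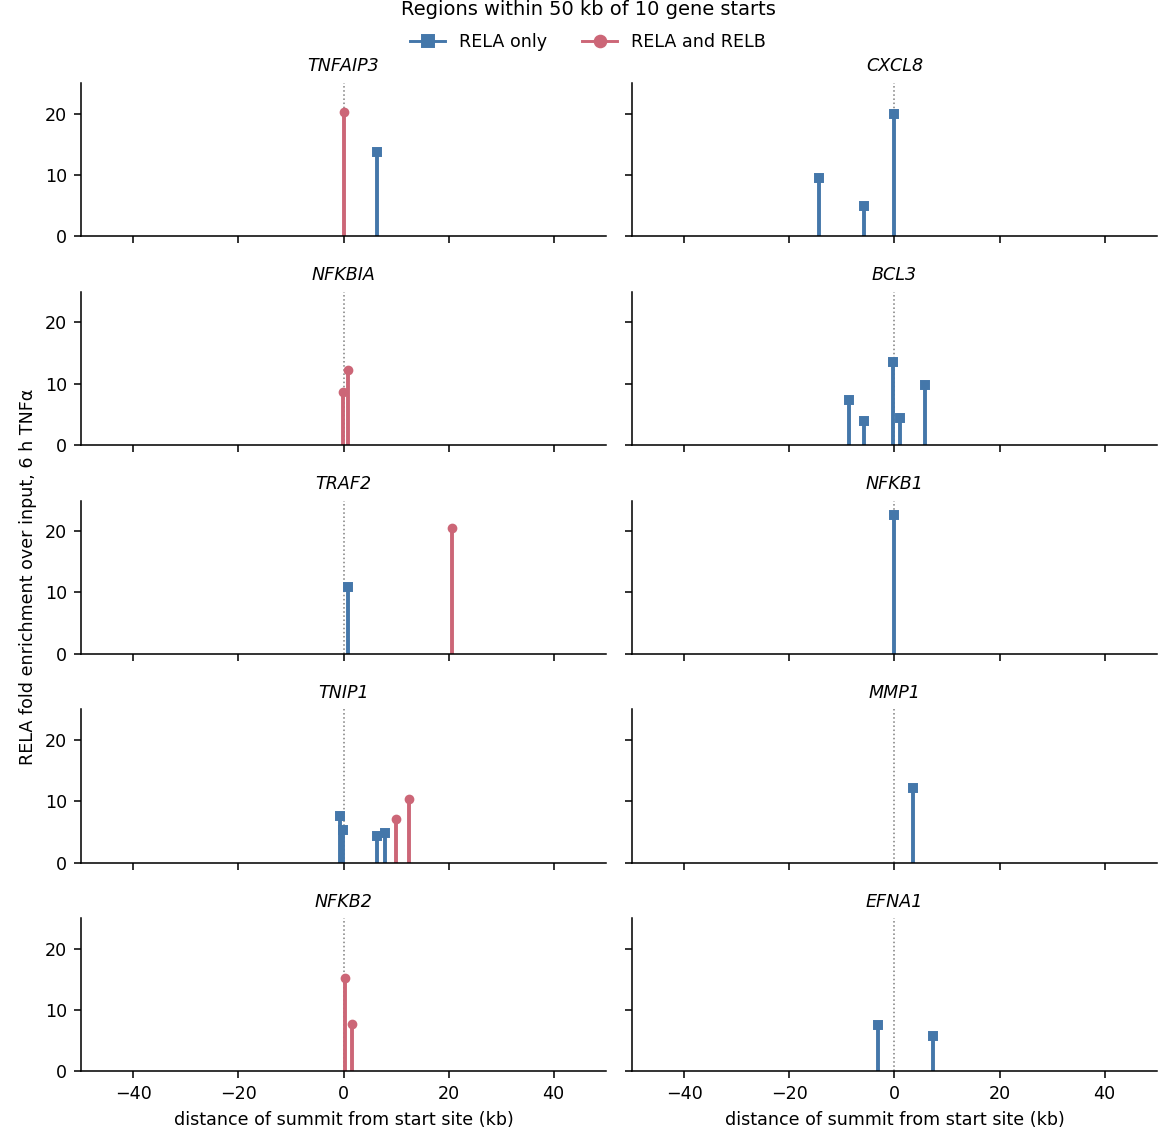
RELA fold enrichment over input at 6 h TNFα (y axis) of every region within 50 kb of the start of 10 genes, placed by the distance of its summit from the start in kb (x axis, positive downstream); circles are shared with RELB and squares RELA only. Shared regions are seen at TNFAIP3, NFKBIA, TRAF2, TNIP1 and NFKB2, and none at CXCL8, BCL3, NFKB1, MMP1 or EFNA1.

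Of 6 genes singled out in the study as example loci, TNFAIP3 and NFKBIA had shared regions at 6 h of TNFα. At the TNFAIP3 start and at the NFKBIA region 803 bp after the start, RELB was also called in vehicle. CXCL8 had 3 RELA-only regions and EFNA1, an ephrin ligand, had 2, of 7.57- and 5.74-fold. MMP1, a collagenase, had 1 RELA-only region (12.2-fold) and BCL3, a nuclear IκB protein, had 5, of which the strongest lay 192 bp before its start. After 6 h of TWEAK RELB was called at the MMP1 region and at 3 of the BCL3 regions, and at none of those of CXCL8 and EFNA1.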

How the data were processed

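ChIP-seq reads of L3.6pl cells had been aligned by the authors to hg38 with Bowtie2 2.5.0 and handled with SAMtools 1.18 and deepTools 3.3.2, and peaks had been called with MACS2, whose version is not given in the sources used here, on the merged 3 replicates of each condition against input. The peak names of the RELA list of 30 min TNFα carry a replicate 1 tag beside the word merged. The deposited peak lists give each peak's fold enrichment over input, a ratio, and the −log10 q-value of the authors' peak caller. They hold no read counts, so depth is unknown.

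A peak was placed in a tandem repeat when the 1000 bp around its summit matched itself, shifted by up to 400 bp, above a limit of 0.4. Motifs were searched within 100 bp of the summit, H3K27ac within 500 bp, and promoters within 1000 bp of protein-coding starts of GENCODE 44. Shares carry exact Clopper-Pearson and differences Newcombe 95% intervals. Python 3.11.15, pandas 2.3.3, scipy 1.17.1 and pysam 0.24.0 were used, and the classification was tested on simulated data. Named genes were those nearest the 10 strongest regions of each class, the listed genes with a shared region, and 6 genes whose tracks the study shows. The 10 strongest single-copy regions of each class, the RELA-only examples from the gene lists and the multicopy division were added after the data were seen. Members and gene lists were chosen with earlier results of these data known. Results for some regions that the rule names are not reported here.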

Additional observations from a re-analysis of the deposited data

How the results depend on the processing

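No paired analysis was possible because each list was called on merged replicates, and leaving out a replicate was not possible for the same reason. Under other overlap, fold, repeat, motif and distance settings 76 values stayed like the reported ones, 36 moved and 1 reversed, and the causes were not tested. The values that moved were these. With summits at most 100 bp apart RELA was at 86.5% of RELB regions. With folds of at least 5 the overlap was 7.92% of RELA and 94.1% of RELB regions, the rank difference 39.3 and the RELB-only minus shared H3K27ac difference -15.6 points. At a self-match limit of 0.5 the overlaps were 14.8% and 84.7%, and the shared minus RELA-only differences were 18.8 in rank, -9.75 in promoters, -25.8 in NF-κB, -5.43 in AP-1, 28.3 in FOSL1 and -0.46 in H3K27ac, which reversed, with RELB-only minus shared NF-κB at -33.6. With tandem repeats kept they were 37.0% and 76.3%, then 7.62, -10.4, -39.5, -13.1 and 34.6, with RELB-only NF-κB at -7.36. With the RELA list shortened to 406 regions both overlaps were 34.7%, NF-κB was 0.86 and FOSL1 14.3. Without regions of the vehicle list of the same antibody the overlaps were 4.25% and 59.4%, NF-κB 8.02, AP-1 11.4 and FOSL1 15.6. These regions were left out before the overlap, so RELA regions whose RELB partner was left out counted as RELA only in these differences. Without regions in all 10 lists NF-κB was 1.32. Within 5 strata of RELA fold NF-κB was -10.1 and FOSL1 18.7. With H3K27ac overlapping the region itself the RELB-only difference was -12.5. Without multicopy regions, chosen after seeing the data, the overlaps were 8.18% and 96.4%, rank 41.6, NF-κB 11.4, AP-1 12.2, H3K27ac 10.8 and its gain 17.8, and RELB-only differences were -73.5 in NF-κB, -0.075 in FOSL1 and 5.64 in H3K27ac, which reversed. Within the strata as well, NF-κB was 2.44 and AP-1 11. Listed genes with a shared region numbered 8 within 10 kb, against 0.551% of all genes, and 1 had a RELB-only region within 100 kb, against 0.461%.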
